A study of Mus musculus with 6 samples.

Results

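A set of 9 genes of the machinery through which MLL-AF9 drives transcription was followed in the leukemia-initiating cells (LICs) of a murine acute myeloid leukemia model: Kmt2a, Mllt3, Mllt1, Mllt10, Aff1, Dot1l, Men1, Psip1 and Cdk9. They were taken by symbol from the deposited table, where all 9 were found among 27179 genes, and all 9 were among the 12037 genes tested. The cells were YFP+Mac-1+c-Kit+ and came from C57BL/6 mice given as 8 weeks old, with 3 libraries labelled Asic3+/+ (WT) and 3 labelled Asic3-/- (Asic3-null). According to the study's methods, Lin- fetal liver cells of either genotype were infected with a retrovirus for MLL-AF9 and YFP and transplanted into irradiated recipients, so both groups carried the fusion. The labels do not say whether the 3 libraries of a group came from separate recipients, and the p values measure only the spread between these libraries.

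KMT2A (MLL) is a histone H3 lysine 4 methyltransferase that holds HOX and MEIS1 loci active in blood stem and progenitor cells. In MLL-AF9 leukemia its N-terminal part is joined to the C-terminal part of AF9, which is encoded by Mllt3. The N-terminal part keeps the contact to menin (Men1) and through it to LEDGF (Psip1), as well as a CXXC domain that binds unmethylated CpG dinucleotides. The AF9 part recruits AFF1 and, with it, the CDK9 kinase of P-TEFb, which releases paused RNA polymerase II, in complexes where ENL (Mllt1) can take the place of AF9, and separately DOT1L with its cofactor AF10 (Mllt10), which methylates histone H3 lysine 79.

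The gene labelled as deleted did not follow its label. Asic3 had 1.22, 1.85 and 0.435 RPKM (reads per length of gene and per library size) under the WT label and 9.12, 4.11 and 6.58 RPKM under the Asic3-null label, that is, more in the libraries whose gene should be lost (log2 fold change 1.81, SE 0.35, limma adjusted p = 0.0260). The call was lost when Asic3-null replicate 1 or 3 or WT replicate 1 or 3 was left out (adjusted p from limma between 0.0655 and 0.1003), and also without a filter on low values (0.0623). The table holds 1 value per gene and does not show from which exons of Asic3 the reads came. Directions are therefore given by label, and a WT or Asic3-null library is one labelled so. Sex-linked genes also separated the groups, since 4 Y-linked genes summed to 0 RPKM in each library labelled Asic3-null and to between 81.4 and 118.2 RPKM in those labelled WT, so that genotype and the sex of the cells cannot be told apart. The sort markers Itgam (Mac-1) and Kit were detected in every library, while Cd3e, Cd8a, Ms4a1 and Slc4a1, of the T, B and erythroid lists, were listed at 0 in all 6. Other B cell genes were not, with Ighm at between 48.1 and 132.6 RPKM and Cd79b at between 37.3 and 49.0 RPKM over the 6 libraries, and the 8 B cell genes summed to between 95.6 and 174 RPKM under the Asic3-null label and between 126 and 182 RPKM under the WT label. The sums of the T cell and erythroid lists did not exceed 6.15 and 10.8 RPKM. Itgam was nevertheless lower under the Asic3-null label, at between 12.3 and 16.9 RPKM against between 55.1 and 89.5 RPKM (log2 fold change -2.35, adjusted p = 0.000720 from limma). Kit lay the other way, at between 14.4 and 20.4 RPKM against between 8.97 and 15.3 RPKM, and was not called (log2 fold change 0.64, limma adjusted p = 0.219). The 19 neutrophil granule genes summed to between 4108 and 5470 RPKM with the Asic3-null label and between 10574 and 12346 RPKM with the WT label, and 14 of the 18 tested were called lower. The part of the sex of the cells, of Itgam and of the granule genes in the results below was not tested, and in bulk RNA fewer cells of a type and less RNA per cell cannot be told apart. Inferred library sizes lay between 1947168 and 2381861 reads.

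The promoters of 3 of the genes are shown because Kmt2a supplies the CpG-binding portion of the fusion and because Mllt10 and Mllt1 were the genes with the largest differences. Each runs from 250 bases before to 50 bases after a RefSeq start on GRCm38.p6, 5′ to 3′ on the strand of the gene, with CpG dinucleotides in capitals.
Kmt2a (chr9:44881240-44881539, minus strand): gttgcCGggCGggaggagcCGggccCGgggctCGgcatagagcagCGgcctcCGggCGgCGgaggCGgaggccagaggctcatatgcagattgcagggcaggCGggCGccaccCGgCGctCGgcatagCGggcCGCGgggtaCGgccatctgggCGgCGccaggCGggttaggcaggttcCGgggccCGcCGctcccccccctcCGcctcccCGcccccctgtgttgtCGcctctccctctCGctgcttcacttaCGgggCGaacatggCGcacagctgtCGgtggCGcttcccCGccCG
Mllt1 (chr17:56935339-56935638, minus strand): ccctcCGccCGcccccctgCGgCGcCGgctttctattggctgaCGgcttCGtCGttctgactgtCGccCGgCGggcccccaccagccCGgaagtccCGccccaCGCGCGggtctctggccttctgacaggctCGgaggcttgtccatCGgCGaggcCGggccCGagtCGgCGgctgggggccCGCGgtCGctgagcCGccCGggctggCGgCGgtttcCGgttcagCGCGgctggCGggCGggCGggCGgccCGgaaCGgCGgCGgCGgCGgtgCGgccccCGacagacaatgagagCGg
Mllt10 (chr2:18064335-18064634, plus strand): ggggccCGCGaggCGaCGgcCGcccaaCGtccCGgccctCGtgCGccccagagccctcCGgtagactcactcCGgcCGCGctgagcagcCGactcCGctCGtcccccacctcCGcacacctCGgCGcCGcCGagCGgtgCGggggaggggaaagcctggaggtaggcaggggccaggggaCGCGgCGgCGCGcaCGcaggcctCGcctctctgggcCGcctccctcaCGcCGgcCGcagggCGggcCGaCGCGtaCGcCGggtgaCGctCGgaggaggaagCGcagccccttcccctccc

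These windows held 36, 46 and 43 CpG dinucleotides for Kmt2a, Mllt1 and Mllt10, where the median over 32851 promoter windows of 300 bases was 7. RefSeq windows were at hand for 8 of the 9 genes, all but Psip1, and where a gene had several, the window with the most CpG was taken. Over the 8 genes the count ran from 16 in Men1 to 49 in Dot1l, and all 8 had a CpG content above 0.6 of that given by their base composition, as did 35.8% of all windows. The further windows of Mllt10, at other starts, held 7 and 6 CpG, and a further window of Mllt3 held 4, against 29 in its first. On either strand, GGGCGG (the GC box) was present in 8 of 8 windows and in 35.7% of all windows, CCAAT in 4 of 8 and in 37.4%, and CCGGAAG (an ETS-type site) in 3 of 8, those of Mllt1, Dot1l and Cdk9, and in 8.86%. TATAAA and CACGTG were in none of the 8, and in 13.6% and 7.15% of all windows. GGGCGG itself contains a CpG, and the choice of the window with the most CpG can raise both counts.

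All 9 genes were expressed in LICs, over a wide range of levels. Cdk9 stood highest with a mean of 58.9 ± 6.45 RPKM over the 6 libraries (SD), above 85.6% of tested genes, and Mllt3 lowest with 3.58 ± 1.19 RPKM, above 17.5%. Between them lay Mllt10 (29.4 RPKM), Aff1 (25.9), Mllt1 (20.9), Men1 (19.5), Dot1l (17.2), Kmt2a (12.4) and Psip1 (8.27), as mean RPKM, a level per length of gene. The step from Cdk9 down to Mllt10 was 2.09-fold, that from Dot1l to Kmt2a 1.41-fold and that from Psip1 to Mllt3 2.36-fold, as geometric means of the ratio within a library, and each held in 6 of 6 libraries (two-sided exact sign-flip permutation p = 0.031, below which 6 libraries cannot go, and adjusted p = 0.0833 over 8 neighbouring pairs). The step from Kmt2a to Psip1 (1.49-fold) held in 5 of 6 libraries, and its adjusted p from the same exact test was 0.125. Neighbours among Mllt10, Aff1, Mllt1, Men1 and Dot1l could not be put in order, since each such step held in only 3 or 4 of the 6 libraries and the adjusted p from the exact test lay between 0.20 and 0.5625. Genes farther apart in the order were not tested, but Mllt10 lay above Mllt1, Men1 and Dot1l in 6 of 6 libraries, and Aff1 above Dot1l in 6 of 6. Mllt10 was above Aff1 in 3 of 3 libraries labelled Asic3-null and in 1 of 3 labelled WT, whereas Aff1 was above Mllt1 in 3 of 3 libraries labelled WT and in 1 of 3 labelled Asic3-null.

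**Figure D1:**
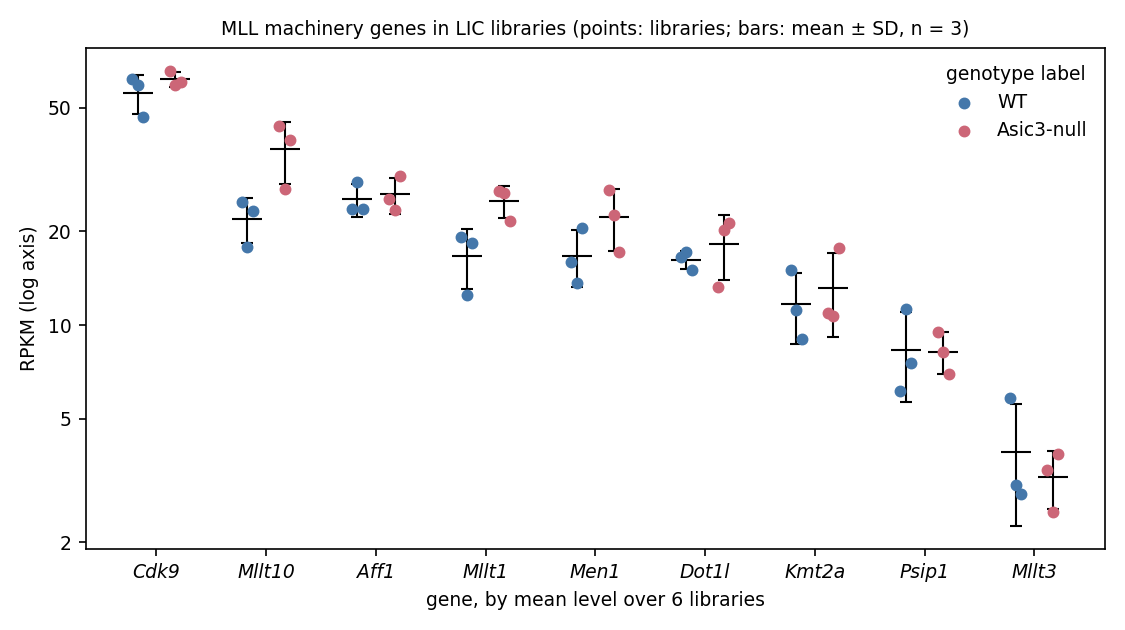
RPKM of the 9 genes in each library (log axis), with WT libraries in blue and Asic3-null libraries in red, and bars for the mean ± SD (n = 3). Mllt10 and Mllt1 are the genes whose groups do not overlap, while Cdk9 lies above all others and Mllt3 below.

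The comparison of Asic3-null with WT asked whether the machinery itself differed between the LICs. None of the 9 genes was called (0 of 9 at an adjusted p under 0.05 from limma, against 3.35% of all tested genes), and limma-voom on the inferred reads also called 0 of 9. At an unadjusted p under 0.05 there were 2 genes with either method, Mllt10 and Mllt1, both higher in the libraries labelled Asic3-null. With limma, Mllt1 lost this mark without Asic3-null replicate 1 or WT replicate 2, which left 1 gene, and Men1 gained it, also as higher, without Asic3-null replicate 3 or WT replicate 3, which gave 3. Over all tested genes 15.9% passed that mark in either direction and 6.43% passed it upward. The same 2 genes had no overlap between the groups, upward as in 11.2% of all tested genes. The median log2 fold change of the 9 genes was 0.14, beside 0.03 over all tested genes, and 8 of the 9 lay above 0, as did 54.5% of all tested genes. The 95% interval of the log2 fold change stayed within 1 in either direction for 7 of the 9 genes, on the scale of RPKM + 1, which understates changes of low genes such as Mllt3.

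**Figure D2:**
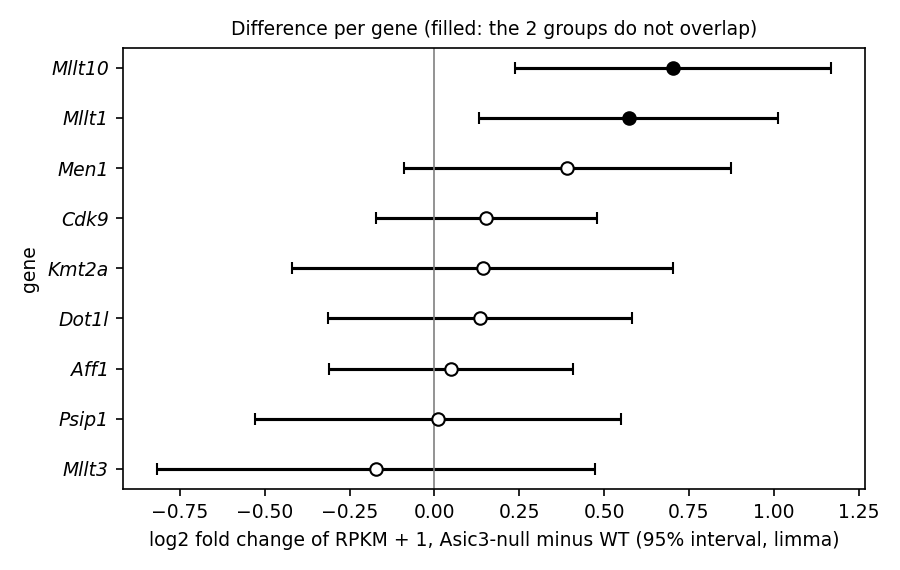
Log2 fold change of RPKM + 1, Asic3-null minus WT, for each gene with its 95% interval from limma, where filled points mark genes whose groups do not overlap. Mllt10 (0.70) and Mllt1 (0.57) stand to the right of 0 with their whole interval, and the other 7 intervals include 0.

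Kmt2a and Mllt3, which both contribute to the fusion, varied more between libraries than between the labels. Kmt2a (Entrez 214162, chromosome 9, 44803355 to 44881352 on GRCm38) had 15.0, 11.2 and 8.99 RPKM under the WT label and 11.0, 10.7 and 17.7 RPKM under the Asic3-null label. The highest value stood in Asic3-null replicate 3 and the next in WT replicate 1, so the groups overlapped. WT averaged 11.7 ± 3.03 RPKM and Asic3-null 13.1 ± 3.97 RPKM (SD, n = 3 per label), which gave a log2 fold change of 0.14 (95% interval -0.42 to 0.70, adjusted p = 0.826 from limma). That value became -0.08 with Asic3-null replicate 3 left out and -0.02 with WT replicate 3 left out. The coefficient of variation of Kmt2a was 25.9% in the WT and 30.3% in the Asic3-null libraries, where counting error alone would give 4.95% and 4.45% at its read numbers.

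Mllt3 (Entrez 70122, chromosome 4, 87769925 to 88033407) had 5.81, 3.06 and 2.85 RPKM under the WT label and 3.40, 2.50 and 3.84 RPKM under the Asic3-null label. WT replicate 1 was the highest of the 6, as a single library, and the others overlapped. WT averaged 3.91 ± 1.65 RPKM and Asic3-null 3.25 ± 0.683 RPKM (SD, n = 3 per label), which gave a log2 fold change of -0.17 (95% interval -0.82 to 0.47, adjusted p = 0.814 from limma), which became 0.09 without WT replicate 1. Mllt3 rested on 297 inferred reads over all libraries and Kmt2a on 2743. The ratio of Mllt3 to Kmt2a within a library was 0.388, 0.274 and 0.317 in the WT and 0.311, 0.234 and 0.217 in the Asic3-null libraries, so that the labels were not separated (two-sided exact permutation p = 0.20, adjusted p = 0.60 over 6 ratios). The retroviral fusion holds parts of both genes, and the species of its sequence is not given in the sources used here. Whether its reads were counted under Kmt2a and Mllt3 is therefore not known. With 1 value per gene, any such reads cannot be told apart from those of the endogenous genes.

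Mllt1 encodes ENL, a YEATS-domain reader of acylated histones and the close relative of AF9. It had 19.2, 12.5 and 18.4 RPKM under the WT label and 26.9, 26.6 and 21.6 RPKM under the Asic3-null label (Entrez 64144, chromosome 17, 56892608 to 56935509). Every Asic3-null library lay above every WT library, with 2.35 RPKM between the nearest ones. WT averaged 16.7 ± 3.65 RPKM and Asic3-null 25.1 ± 3.00 RPKM (SD, n = 3 per label), 1.499-fold (two-sided exact permutation p = 0.10, the smallest that 3 against 3 allow). The log2 fold change of Mllt1 was 0.57 (95% interval 0.13 to 1.01), which was not called over all genes (adjusted p = 0.192 from limma). In these cells Mllt1 exceeded Mllt3 in each library. The ratio of Mllt3 to Mllt1 was 0.302, 0.244 and 0.155 in the WT and 0.126, 0.0938 and 0.178 in the Asic3-null libraries, with geometric means of 0.225 and 0.128, and WT replicate 3 fell among the Asic3-null libraries (two-sided exact permutation p = 0.20, adjusted p = 0.60 over 6 ratios). Mllt1 and Mllt3 are paralogs, and how reads shared by paralogs were counted is not given in the sources used here.

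Among the genes of the H3K79 methyltransferase complex, Mllt10 had the largest difference of the 9 and Dot1l a small one. Mllt10 (Entrez 17354, chromosome 2, 18055160 to 18212390), the AF10 cofactor that DOT1L needs for higher methylation states, had 24.8, 17.8 and 23.4 RPKM under the WT label and 43.6, 27.5 and 39.3 RPKM under the Asic3-null label. The groups did not overlap, with 2.64 RPKM between Asic3-null replicate 2 and WT replicate 1. WT averaged 21.998 ± 3.68 RPKM and Asic3-null 36.8 ± 8.37 RPKM (SD, n = 3 per label), 1.67-fold (two-sided exact permutation p = 0.10, the smallest possible here), with a log2 fold change of 0.70 (95% interval 0.24 to 1.17). Over all genes Mllt10 was not called (adjusted p = 0.125 from limma). The span of Mllt10 also holds part of Dnajc1, a co-chaperone gene with 886 inferred reads beside the 2182 of Mllt10, and the libraries do not mark strand. Dnajc1 had 6.32, 6.04 and 6.89 RPKM in the WT and 9.71, 8.02 and 8.63 RPKM in the Asic3-null libraries, also without overlap (log2 fold change 0.40, adjusted p = 0.316 from limma), and the share of reads the genes exchange was not tested.

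Dot1l (Entrez 208266, chromosome 10, 80755101 to 80795461), the methyltransferase itself, had 16.5, 17.1 and 15.0 RPKM under the WT label and 13.3, 20.2 and 21.2 RPKM under the Asic3-null label. Asic3-null replicate 1 was the lowest of the 6 libraries and the other Asic3-null libraries the highest, so the groups overlapped. WT averaged 16.2 ± 1.11 RPKM and Asic3-null 18.2 ± 4.33 RPKM (SD, n = 3 per label), which gave a log2 fold change of 0.13 (95% interval -0.31 to 0.58, adjusted p = 0.786 from limma). Mllt10 exceeded Dot1l in every library, by a ratio of 1.5002, 1.04 and 1.56 in the WT and 3.29, 1.36 and 1.85 in the Asic3-null libraries. The difference in that ratio was within the spread between libraries (two-sided exact permutation p = 0.30, adjusted p = 0.60 over 6 ratios).

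Aff1 and Cdk9 had the smallest SD over the 6 libraries relative to their mean. Aff1 (Entrez 17355, chromosome 5, 103692362 to 103855322), a scaffold of the super elongation complex and itself a common fusion partner of KMT2A, had 23.7, 28.9 and 23.6 RPKM under the WT label and 25.4, 23.4 and 30.2 RPKM under the Asic3-null label. The groups overlapped throughout, averaging 25.4 ± 3.04 RPKM in WT and 26.3 ± 3.49 RPKM in Asic3-null (SD, n = 3 per label), with a log2 fold change of 0.05 (95% interval -0.31 to 0.41, adjusted p = 0.913 from limma), or -0.05 without Asic3-null replicate 3. Aff4, the other scaffold of this complex in most cells, had a mean of 5.15 RPKM, and Aff1 exceeded it by a geometric mean of 5.11-fold over the 6 libraries. The ratio of Aff1 to Aff4 was 5.75, 4.24 and 4.97 in the WT and 3.94, 6.09 and 6.10 in the Asic3-null libraries (two-sided exact permutation p = 0.80, adjusted p = 0.90 over 6 ratios).

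Cdk9 (Entrez 107951, chromosome 2, 32705782 to 32712784), the kinase of P-TEFb, had 61.9, 59.1 and 46.7 RPKM under the WT label and 65.9, 59.3 and 60.4 RPKM under the Asic3-null label. WT replicate 3 was lower than the other 5 libraries, which lay close together. WT averaged 55.9 ± 8.06 RPKM and Asic3-null 61.9 ± 3.50 RPKM (SD, n = 3 per label), which gave a log2 fold change of 0.15 (95% interval -0.17 to 0.48, adjusted p = 0.650 from limma). In the Asic3-null libraries the coefficient of variation of Cdk9 was 5.66%, near the 4.51% that counting error gives, while in the WT libraries it was 14.4% against 4.99%.

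The chromatin anchors of the fusion, Men1 and Psip1, were not called either. Men1 (Entrez 17283, chromosome 19, 6334979 to 6340894), which encodes menin, had 15.96, 13.7 and 20.6 RPKM under the WT label and 27.3, 22.5 and 17.2 RPKM under the Asic3-null label. Asic3-null replicate 3 lay below WT replicate 3, and the other libraries were apart by label. WT averaged 16.7 ± 3.51 RPKM and Asic3-null 22.3 ± 5.03 RPKM (SD, n = 3 per label), which gave a log2 fold change of 0.39 (95% interval -0.09 to 0.87, adjusted p = 0.408 from limma). Asic3-null replicate 3 was also the library with the most Kmt2a, and the ratio of Men1 to Kmt2a ran from 1.06 to 2.29 in the WT and from 0.974 to 2.49 in the Asic3-null libraries (two-sided exact permutation p = 0.90, adjusted p = 0.90 over 6 ratios).

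Psip1 (Entrez 101739, chromosome 4, 83455680 to 83486463) encodes LEDGF, a reader of methylated H3 lysine 36. It had 6.13, 11.3 and 7.57 RPKM under the WT label and 9.50, 8.18 and 6.96 RPKM under the Asic3-null label, which lay within the WT range. WT averaged 8.33 ± 2.67 RPKM and Asic3-null 8.21 ± 1.27 RPKM (SD, n = 3 per label), which gave a log2 fold change of 0.01 (95% interval -0.53 to 0.55, adjusted p = 0.992 from limma). Its sign turned in 4 alternatives, to -0.16, -0.09 and -0.03 without WT replicate 1, Asic3-null replicate 1 and WT replicate 3, and to -0.0054 under median-ratio scaling. The ratio of Psip1 to Kmt2a ran from 0.409 to 1.01 in the WT and from 0.393 to 0.867 in the Asic3-null libraries (two-sided exact permutation p = 0.60, adjusted p = 0.90 over 6 ratios). The span of Psip1 overlaps that of Snapc3, which had 152 inferred reads beside the 352 of Psip1.

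The wider machinery was described by 10 further lists of known partners. Of their 85 tested genes none was called, either by limma or by limma-voom, and at an unadjusted p under 0.05 each method had 6 higher and 5 lower, beside 15.9% of all tested genes. Of the 8 tested partners in the super elongation complex and P-TEFb, Ell2, an elongation factor, stood at 0.74 on the log2 scale (limma adjusted p = 0.299) and Aff3, a further AFF scaffold, at 0.30. Ell2 lay near the filter on low values, with a mean of 1.75 RPKM and 88 inferred reads, and its groups overlapped. Among the 4 genes of the 7SK particle, which holds P-TEFb inactive, the log2 fold changes lay between -0.29 (Mepce) and 0.33 (Larp7). Of the 7 tested partners of DOT1L and AF9, Npm1 had 0.38 and Cbx8, a Polycomb protein that binds AF9, had 0.33. These partner lists had median log2 fold changes of 0.07, -0.09 and 0.16, beside 0.03 for all tested genes.

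A list of subunits of KMT2 enzymes (7 tested), which also holds Tasp1, the protease that cleaves KMT2A, had a median log2 fold change of 0.25. In it Hcfc2 stood at 0.59 and Tasp1 at 0.47. Ash2l, a subunit in the same list, stood at -0.41. Of the 12 tested other H3K4 methyltransferases and their subunits, Kmt2e, a KMT2 relative without known methyltransferase activity, had the lowest log2 fold change, with 20.9, 25.9 and 20.5 RPKM in the WT and 16.2, 9.54 and 16.8 RPKM in the Asic3-null libraries (log2 fold change -0.66, adjusted p = 0.198 from limma), and Paxip1 had 0.31. The 6 tested genes of the PAF1 complex, which binds KMT2A, had a median of 0.24, with Paf1 at 0.29 and Leo1 at 0.28. Among 11 MOZ and HBO1 acetyltransferase genes, Jade3, which is X-linked and rested on 85 inferred reads, had 0.53 and Ing5 had 0.44, and the median was 0.12. The 15 pause and elongation factors of RNA polymerase II had a median of 0.09, with Mnat1 at 0.40 and Supt16 at 0.26, and the 4 relatives of LEDGF ran from -0.42 (Hdgfl3) to 0.41 (Iws1) around a median of 0.18. Of 11 other fusion partners of KMT2A, 3 had a log2 fold change above 0 and the median was -0.09, with Gas7 at -0.77 and Mllt11 at -0.69. Mllt11 had 6.81, 3.68 and 3.53 RPKM in the WT and 2.92, 2.00 and 2.37 RPKM in the Asic3-null libraries, without overlap, and was not called (adjusted p = 0.273 from limma).

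Some genes known as targets of MLL fusions were called, unlike the machinery. Of 13 tested targets, 2 were called higher under the Asic3-null label and 1 lower, against 3.35% called over all tested genes. Eya1, a phosphatase and transcriptional coactivator, rose from 10.5, 10.8 and 9.04 RPKM in the WT to 32.0, 21.2 and 25.8 RPKM in the Asic3-null libraries (log2 fold change 1.28, standard error 0.18, adjusted p = 0.00716 from limma), and was called in all 14 alternatives. Meis1, a homeobox cofactor of HOXA9, rose from 14.2, 14.9 and 13.99 RPKM to 21.7, 28.2 and 35.3 RPKM (log2 fold change 0.91, standard error 0.19, adjusted p = 0.0367 from limma).

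Hoxa5 fell from 30.2, 24.1 and 31.3 RPKM in the WT to 15.6, 15.9 and 16.6 RPKM in the Asic3-null libraries (log2 fold change -0.78, standard error 0.15, adjusted p = 0.0287 from limma). Hoxa10 (-0.85) and Hoxa9 (-0.58) also had negative log2 fold changes without overlap and were not called by limma, while limma-voom on the inferred reads called Hoxa10. Mef2c (0.38), Bcl2 (0.36) and Myb (0.35) had positive ones without overlap and were not called by either. Of the 13 targets, 5 lay without overlap above the WT libraries and 3 below, beside 11.2% and 11.4% of all tested genes. At an unadjusted p under 0.05 from limma 4 targets were higher and 3 lower, beside 6.43% and 9.45% of all tested genes. In the deposited RPKM values the groups were apart for each of these named targets, and their overlap under the alternatives was not computed. The call was less firm than that of Eya1 for Meis1, called in 6 of 14 alternatives, and Hoxa5, called in 8 of 14. Hoxa5 lost its call when any library was left out other than WT replicate 2 (adjusted p from limma between 0.0747 and 0.102), and Meis1 lost it without any library other than Asic3-null replicate 1 (adjusted p from limma between 0.0955 and 0.127). Whether the targets differed more than the 9 genes was not tested.

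**Figure D3:**
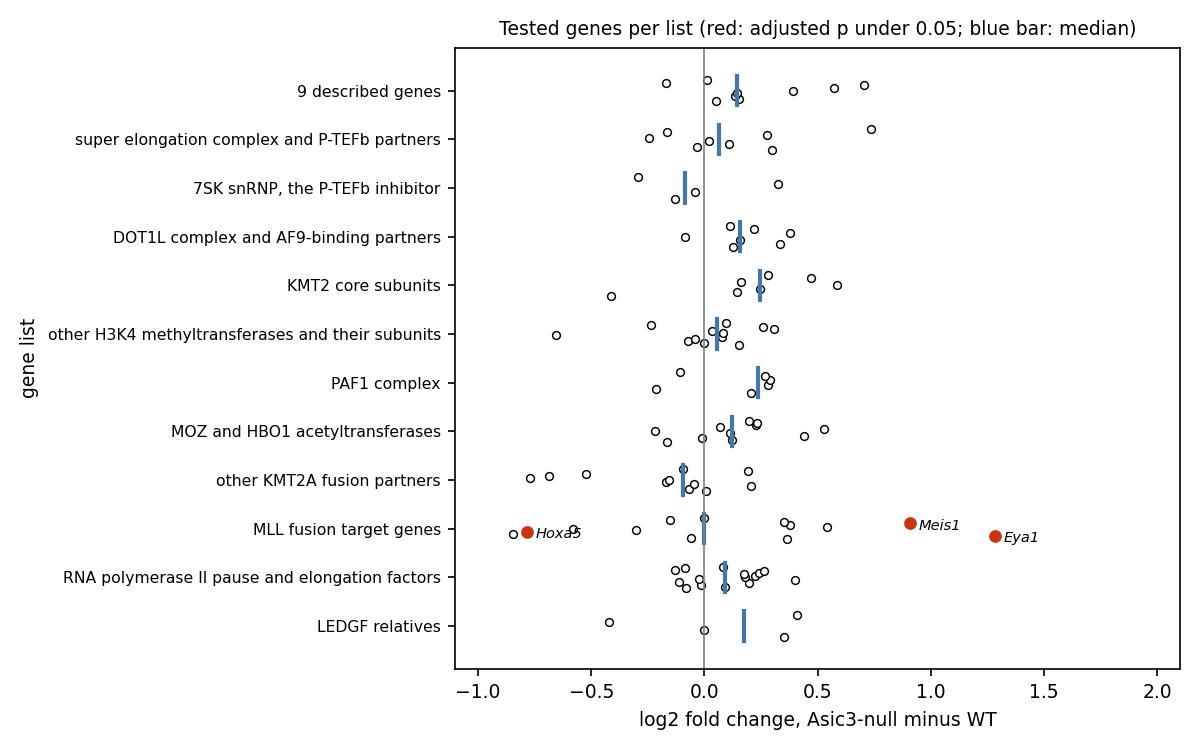
Log2 fold change, Asic3-null minus WT, of every tested gene in the 9 described genes and in 11 lists around them, where red points have an adjusted p under 0.05 from limma and blue bars give the median of each list. The red points, Eya1 and Meis1 to the right of 0 and Hoxa5 to the left, stand in the list of fusion targets alone.

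The values of the 9 genes moved with single libraries more than with the processing. No filter, a filter at 5 RPKM, no trend and the replicate block alter only the p value and cannot move the log2 fold change. Mllt10 stayed higher in the libraries labelled Asic3-null in 14 of 14 alternatives, with a log2 fold change between 0.57 and 0.90 and an adjusted p between 0.0590 and 0.323 from limma, and of 0.0557 from limma-voom. Mllt1 stayed higher as well, between 0.39 and 0.68 (adjusted p between 0.180 and 0.407 from limma, and of 0.122 from limma-voom). The groups of Mllt10 and Mllt1 do not overlap, so leaving out a library or a smaller pseudocount could not turn their direction. Only median-ratio scaling, quantile normalization and limma-voom could have done so. Men1, Cdk9 and Dot1l kept their direction, with log2 fold changes from 0.24 to 0.56, from 0.03 to 0.23 and from 0.02 to 0.34. Kmt2a, Mllt3, Aff1 and Psip1 changed direction in 2, 1, 1 and 4 alternatives, all of them libraries left out but 1 for Psip1.

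**Figure D4:**
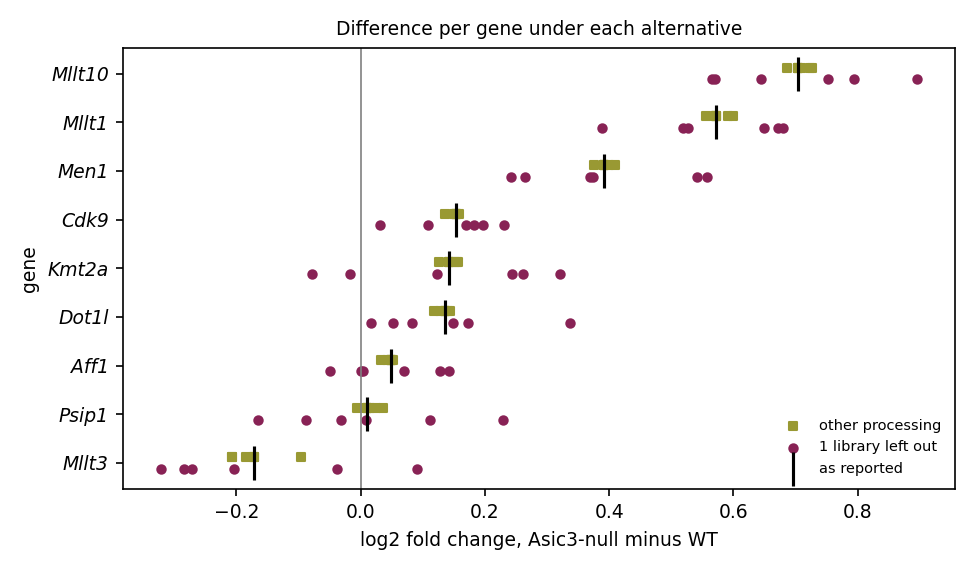
Log2 fold change, Asic3-null minus WT, of each gene as reported (black bar), with other processing choices (squares) and with 1 library left out (circles). Leaving out a library moves the values further than the processing does, for Mllt10 from 0.57 to 0.90, and none of the points was called.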

How the data were processed

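Total RNA of sorted LICs was sequenced from libraries made with a TruSeq v2 kit, which does not mark strand. Per the labels, the authors used CASAVA 1.8.2 and TopHat2 2.0.12 with GRCm38. The deposited table gives RPKM for each gene in each library. The counting tool, annotation and library total are not given in the sources used here. RefSeq (GRCm38.p6) supplied symbols and positions and matched 25275 of 27179 Entrez numbers.

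Whole reads were inferred from the RPKM values: reciprocals of low values share the library size as a divisor, and the smallest gene length giving whole reads within 0.0001 was kept, which worked for 16825 of 16825 genes above 0. Intervals and counting errors from these reads cover counting error only. Genes with a mean of at least 1 RPKM were fitted on log2(RPKM + 1) with limma 3.58.1 (R 4.3.3, intensity trend, Benjamini-Hochberg over all 12037 genes, threshold 0.05). Fold changes on this scale understate those of low genes. Levels and ratios were compared by exact permutation in Python 3.11.15. The 9 genes, the lists and the tests were chosen with earlier results of these data known. The lists came from general knowledge, and 3 of their genes are not reported here and were left out of the counts, sums and plots of the lists. Named from each list were the called genes or, with none called, the 2 with the largest change. Hoxa9, Hoxa10, Mef2c, Bcl2, Myb, Kit, Dnajc1, Snapc3, Aff4, Ash2l, Ighm and Cd79b were added to the named genes after values were seen, as were the library values of Kmt2e and Mllt11. Alternatives were a pseudocount of 0.1, no filter, a filter at 5 RPKM, median-ratio scaling, quantile normalization, no trend, limma-voom on inferred reads, the replicate number as a block, and each library left out. Tested on simulated data of the Asic3-null and WT libraries (11886 genes, 66 changed at each size), the fit recovered 28.8% of genes changed 1.5-fold, 74.2% at 2-fold and 97.0% at 4-fold, with 14 false calls, and made 4 calls when none was changed. The simulation used a dispersion (spread between libraries beyond counting error) of 0.0109. Several of the 9 genes, Kmt2a among them, spread more than this, so these rates can overstate the recovery of such genes. The recovery of the 9 genes themselves was not tested.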

Additional observations from a re-analysis of the deposited data

How the results depend on the processing

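None of the 9 genes was called under any of the 14 alternatives (13 for Mllt3, which a filter at 5 RPKM removed), and Mllt10, Mllt1, Men1, Cdk9 and Dot1l kept their direction in all of them. Of these alternatives, no filter, a filter at 5 RPKM, no trend and the replicate block could not change a direction. For Mllt10 and Mllt1, leaving out a library could not change it either. With 1 library left out, the log2 fold change ranged from -0.08 to 0.32 for Kmt2a, from -0.32 to 0.09 for Mllt3, from -0.05 to 0.14 for Aff1 and from -0.16 to 0.23 for Psip1, so that each changed sign: Kmt2a to -0.078 and -0.018 without Asic3-null replicate 3 and WT replicate 3, Mllt3 to 0.0899 without WT replicate 1, Aff1 to -0.0499 without Asic3-null replicate 3, and Psip1 to -0.09, -0.16 and -0.03 without Asic3-null replicate 1, WT replicate 1 and WT replicate 3. Psip1 was also at -0.0054 under median-ratio scaling. Over all genes 403 were called, 246 with the replicate number as a block and between 203 (without WT replicate 1) and 293 (without WT replicate 3) with a library left out. Of the listed partner and target genes, limma called 3, 2 without a filter or an intensity trend, 1 with the replicate block (Eya1) and between 1 and 2 with a library left out, and limma-voom called 4. The call of Asic3 was also lost with the replicate block (adjusted p = 0.0598 from limma). Same-numbered libraries did not deviate together (r across genes of 0.06, -0.06 and -0.12 for numbers 1, 2 and 3, and not every library was closest to its own number). These values gave no sign that the numbers pair the samples, but such correlations cannot exclude a paired design. The order of levels held in every library for 3 of 8 neighbouring pairs, and for 5 over the libraries labelled Asic3-null alone. None of the 6 ratios was without overlap, and between 0 and 2 were with a library left out. The cause of these shifts was not tested. Library sizes from 1947168 to 2381861 reads limit Mllt3 (297 reads) and Psip1 (352 reads) most.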

Other observations

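Over the 6 libraries, the tested genes whose values lay nearest to those of Kmt2a, after each gene was centred on its own mean, were Asb1, the gene with Entrez number 100503237 and Gm10768, with root mean square differences of 0.03, 0.07 and 0.08 on the log2 scale. Nearest to Mllt3 were the gene with Entrez number 100502772, Gm17801 and Glb1l, at 0.06, 0.07 and 0.07. The median over all tested genes was 0.39 for both. With 6 libraries and 12037 genes these are descriptions of likeness without a test.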
